A study of Mus musculus with 9 samples.

Results

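The 3 samples described here were Neuro2a cells treated with DMSO alone, the vehicle controls of a study of 9 samples that also treated the cells with 4-methylumbelliferyl-β-D-xylopyranoside at 500 nM (LCX) or 1 mM (HCX), 3 samples each. Xylosides are sugars that prime glycosaminoglycan chains apart from any core protein, and the DMSO samples give the state from which the study measured their action. Neuro2a is a wild-type line of mouse neuroblastoma, an embryonal tumor of the sympathetic nervous system, and all 9 samples were grown in DMEM with 10% fetal bovine serum and collected after treatment with DMSO or xyloside. The labels of the xyloside samples and the study's account of its RNA results give 48 h of treatment. A figure legend gives a longer time, and the titles of the DMSO samples give none. The members were defined by label, as the 3 columns of the deposited expression table that name DMSO, with earlier results of these data known. The labels do not tell whether separate cultures were sampled, and the differences among the 3 libraries may therefore be technical. As a dividing line kept in culture, Neuro2a is a model of neuroblasts rather than of mature neurons.

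Sympathetic neuroblasts come from the neural crest, and a circuit of transcription factors that includes Phox2a, Hand2, Gata2 and Gata3 is known to hold them in the noradrenergic lineage. Noradrenergic cells make noradrenaline from tyrosine with the enzymes Th, Ddc and Dbh. The transporters Slc18a1 and Slc18a2 load monoamines into vesicles, and noradrenaline is stored in dense-core granules packed with granins.

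Levels were read as normalized counts, in which 1 unit was close to 1 read: the 1638 values above 0 and under 1.6 in the DMSO libraries had a median of 0.978, with 5th and 95th percentiles of 0.925 and 1.03. The DMSO libraries summed to between 36560900 and 36667100 normalized counts, and the LCX and HCX libraries to between 34949800 and 35668500. Between 12939 and 13040 gene names reached 10 in a DMSO library, and between 12832 and 13005 in an LCX or HCX library. A gene was called expressed at 10 or more in all 3 DMSO libraries and silent below 1 in all 3, and any other gene was called low. To compare genes, each value was divided by the length of the gene's merged exons in kb. A listing of 0 allows up to 3 reads in a library by counting error, and a read shared between near-identical genes can also be listed under the other gene.

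Of 24972 gene names, 12581 were expressed (50.4%), 3133 were low and 9258 were silent, of which 8860 were listed at 0 in all 3 libraries. Among the 20571 protein-coding names 12014 were expressed (58.4%), against 462 of 3903 other placed names. At the threshold, 103 genes had their lowest value from 10 to below 12 and 148 from 8 to below 10. The genes that were not expressed together held 0.0470% ± 0.0035 of the summed values (SD, n = 3). Of 173 names of ribosomal proteins and of subunits of the proteasome, RNA polymerase II, respiratory complex I, ATP synthase and eIF3, 168 were expressed. The other 5 were Psma8, Psmb11, Rpl10l, Rpl3l and Rps4l, paralogs of housekeeping subunits.

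The 4 markers named for this line, Hand2, Map1b, Tubb3 and Chgb, were all expressed. Hand2, a transcription factor of sympathetic neurons, had 9626, 9262 and 10473 normalized counts in the 3 DMSO libraries. Map1b, which binds microtubules in growing neurites, had 122733, 111622 and 114283 normalized counts. Tubb3, the neuronal β-tubulin whose protein the study stained in its neurons, had 14610.2, 16069 and 14643 normalized counts. Chgb, a granin of dense-core vesicles, had 12212, 12128 and 12253 normalized counts, the closest agreement among the 3 libraries of these 4 genes. Per kb of exon the order was Tubb3 (8087 ± 446 normalized counts per kb), Map1b (7334 ± 366), Chgb (4452 ± 23.2) and Hand2 (4163 ± 264, SD, n = 3 each), and among neighbors in this order only Chgb and Hand2 overlapped in their 3 libraries. The order of the first pair depended on the length used. Per kb of the longest transcript, Map1b (mean 9842) was above Tubb3 (8087). In RNA from whole cultures, fewer cells that express a gene and less RNA per cell cannot be told apart.

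Promoter sequence was set beside these levels for the 18203 gene names with a promoter in the RefSeq table (GRCm38.p6, 250 bases before to 50 after a start site). A promoter was called CpG-rich at an observed over expected CpG ratio of at least 0.6 and at least 50% GC, and a gene counted as CpG-rich with any such promoter. One gene of each kind is shown, with CpG dinucleotides in capitals. Hand2 (chr8:57320733-57321032, + strand) was expressed and CpG-rich, with 17 CpGs and a ratio of 0.897. Its GC share of 50.3% was just above the limit of 50%. Prph (chr15:99054924-99055223, + strand) was expressed and CpG-poor, with 10 CpGs and a ratio of 0.324. Emx2 (chr19:59458440-59458739, + strand), a forebrain regulator that was listed at 0, had 26 CpGs and a ratio of 0.838. Alb (chr5:90460620-90460919, + strand), the liver gene of serum albumin and also listed at 0, had 3 CpGs and a ratio of 0.272.
Hand2: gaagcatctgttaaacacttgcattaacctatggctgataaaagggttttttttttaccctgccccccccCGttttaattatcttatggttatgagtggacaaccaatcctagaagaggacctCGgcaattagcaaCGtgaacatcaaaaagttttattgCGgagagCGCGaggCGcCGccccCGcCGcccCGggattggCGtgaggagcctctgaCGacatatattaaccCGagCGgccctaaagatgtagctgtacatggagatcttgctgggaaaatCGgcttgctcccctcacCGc
Prph: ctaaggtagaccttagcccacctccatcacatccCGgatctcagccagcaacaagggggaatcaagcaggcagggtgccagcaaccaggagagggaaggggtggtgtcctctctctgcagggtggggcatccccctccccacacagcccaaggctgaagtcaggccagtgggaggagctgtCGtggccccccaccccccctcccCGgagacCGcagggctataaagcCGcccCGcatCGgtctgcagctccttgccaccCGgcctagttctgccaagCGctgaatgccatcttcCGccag
Emx2: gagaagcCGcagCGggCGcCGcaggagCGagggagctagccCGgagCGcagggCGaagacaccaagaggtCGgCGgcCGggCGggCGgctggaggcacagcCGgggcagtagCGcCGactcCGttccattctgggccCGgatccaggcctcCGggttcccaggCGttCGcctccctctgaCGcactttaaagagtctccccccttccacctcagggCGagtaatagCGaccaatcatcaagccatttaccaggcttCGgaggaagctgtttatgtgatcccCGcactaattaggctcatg
Alb: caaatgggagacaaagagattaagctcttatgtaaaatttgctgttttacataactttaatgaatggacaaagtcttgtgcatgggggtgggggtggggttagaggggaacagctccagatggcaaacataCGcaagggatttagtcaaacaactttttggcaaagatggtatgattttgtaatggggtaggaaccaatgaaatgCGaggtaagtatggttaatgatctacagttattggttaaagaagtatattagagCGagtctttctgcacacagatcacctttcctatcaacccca

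CpG-rich promoters were held by 7293 of 9891 expressed genes (73.7%, 95% Wilson interval 72.9 to 74.6%), 666 of 2254 low genes (29.5%, 27.7 to 31.5%) and 758 of 6058 silent genes (12.5%, 11.7 to 13.4%). The intervals cover counting error only, and genes are not independent replicates. The median ratio of each gene's most CpG-rich promoter was 0.794 in expressed, 0.393 in low and 0.210 in silent genes. The share grew from 13.8% of genes with a mean below 1 to 88.3% of the 461 genes with a mean of 10000 or more. The motif TATAAA, searched on both strands with any position in the window counted, was in a promoter of 8.19% of expressed, 13.4% of low and 24.3% of silent genes, against 14.2% of all 18203. It is in the Prph promoter shown above (lower case) and not in the windows of Hand2, Emx2 or Alb. Among silent developmental regulators with a promoter in the table, 12 of 16 brain regional transcription factors were CpG-rich, as were 6 of 8 genes of the HoxA cluster, 4 of 8 of the HoxD cluster and 0 of 2 of the HoxB cluster.

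**Figure D1:**
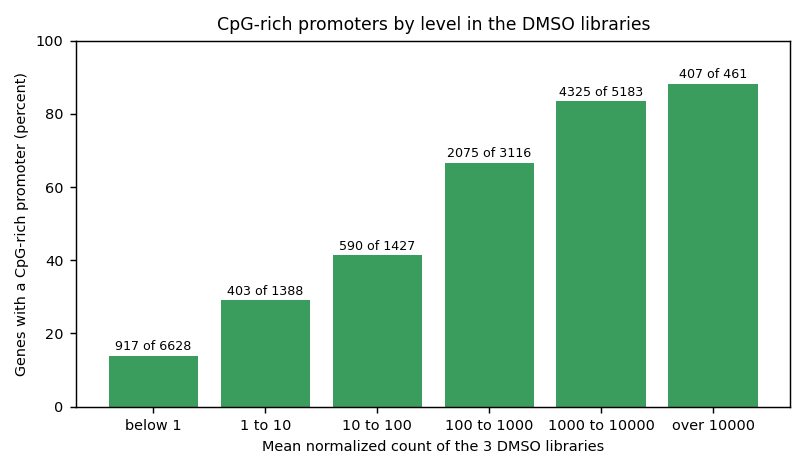
Share of genes with a CpG-rich promoter (y axis, percent) by mean normalized count of the 3 DMSO libraries (x axis), with the number of genes over each bar. The share is 13.8% below 1 and 88.3% at 10000 or more.

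The most abundant genes were those of translation, protein folding and the cytoskeleton. Eef1a1, the elongation factor that brings aminoacyl-tRNA to the ribosome, was first with 373654, 382576 and 359905 normalized counts. Eef2, which moves the ribosome along the mRNA, followed with 217276, 219106 and 213979. The chaperone Hsp90ab1 had 188329, 193712 and 181733 and the cytoplasmic actin gene Actg1 had 172573, 167463 and 164416. The chaperone Hspa8 had 123702, 148556 and 114895, and its highest library was DMSO 2. Map1b was the sixth by value, above Ppia, Atp5b, Rpl4, Rpsa, Npm1, Rack1, Rplp0, Gapdh and Actb. Per kb the order changed, since Map1b has 15846 bases of merged exons and ribosomal protein genes are short: Eef1a1 stayed first (149236 ± 4581 normalized counts per kb), followed by Rpl19 (73493 ± 3929), Rps15 (67924 ± 4569.6), Eef2 (65219 ± 782) and Actg1 (63262 ± 1551, SD, n = 3 each). Rpl8, Rplp0, Rpl4, Ptma, Rplp1, Rpl23a, Rps2 and Lgals1, which encodes galectin-1, were also among the 15 highest per kb. Of the 15 highest by value, 6 were among the 15 highest per kb. Rpl19, Rplp1 and Rpl23a share 58.8%, 75.1% and 52.3% of their 31-base stretches with transcripts of other genes. Rpl34-ps1, a pseudogene entry that was also in the 15, shares 100%, so the levels of these genes are uncertain. Eef1a1, Rps15 and Rps2 share 49.8%, 49.7% and 48.8%, and the same limit applies to them.

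The 10 most abundant genes held 4.41, 4.51 and 4.28% of the summed values in the 3 DMSO libraries. The 100 most abundant held 17.2, 17.7 and 17.3%, a mean of 17.4% ± 0.299 (SD, n = 3), and 36 of them encode ribosomal proteins. The 85 ribosomal protein genes held 7.27, 7.88 and 7.69%, lowest in DMSO 1. It took 1042 genes to reach 50% of the summed mean and 5736 to reach 90%.

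The gene lists for lineage, receptor, channel, matrix and cell state held 980 genes, of which 475 were expressed, 198 low and 307 silent. Against the 50.4% expressed among all gene names, the shares were 51.5% of 260 lineage genes, 39.1% of 220 receptor genes, 41.9% of 172 channel genes and 56.1% of 239 matrix genes, and 6 of 39 Hox genes. Among protein-coding names alone 58.4% were expressed, above each of these shares and below the 76.9% of 65 cell state genes. A second threshold, at least 1 of 1000000 length-scaled counts in each library, lowered the number of expressed members by over 1.5 times in 8 of 52 lists, for which it is given beside the count. The plot of classes by list gives each list's shares.

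**Figure D2:**
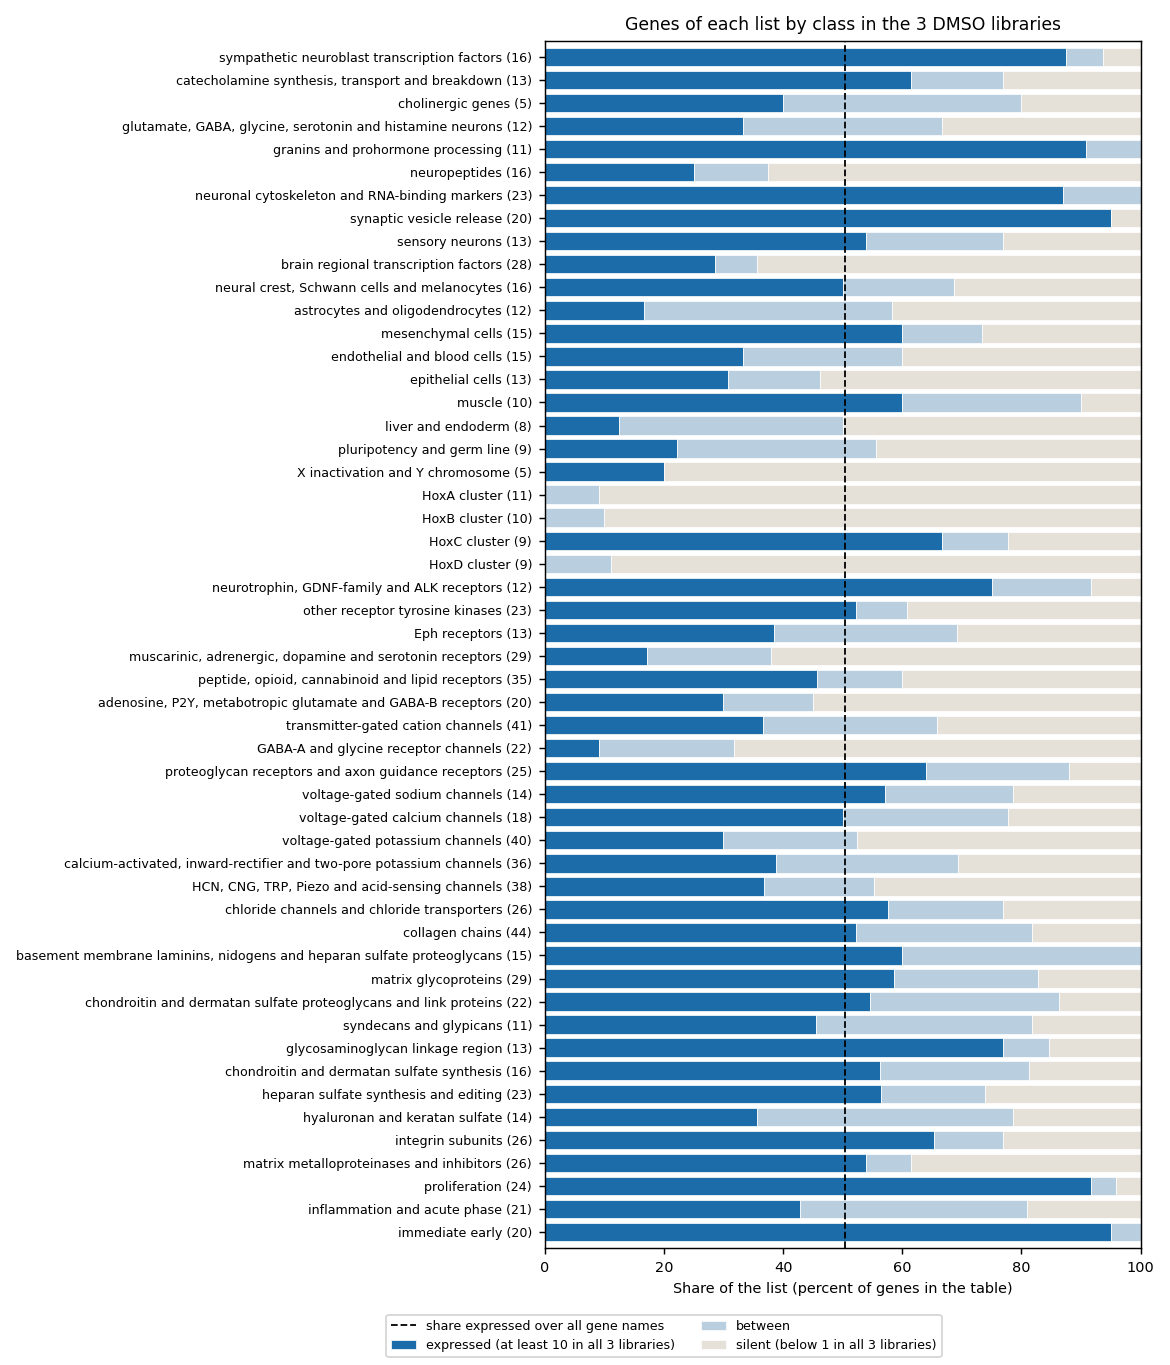
Share of each gene list (y axis, number of genes in parentheses) that was expressed, low or silent in the 3 DMSO libraries (x axis, percent). The dashed line marks the 50.4% of all gene names that were expressed, and among protein-coding names the share was 58.4%. Synaptic vesicle release, immediate early, proliferation, granin and sympathetic transcription factor genes lie furthest to the right of the line among lists of 10 or more genes.

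Sympathetic neuroblast transcription factors were expressed in 14 of 16 cases. Per kb, Hand2 stood above Phox2a (5006, 4609 and 4875 normalized counts; 2373 ± 99.5 per kb), a homeodomain factor of the same lineage, and the 3 libraries of Hand2 and Phox2a did not overlap. Sox4 (11189.6, 9877 and 9940.3 normalized counts), a SoxC factor of immature neurons, overlapped Phox2a per kb. Lmo1, a LIM-only cofactor known as a neuroblastoma oncogene, had 2409.8, 2459 and 2826. Gata2, a zinc-finger factor of sympathetic neurons, had 6706, 6662 and 6445 and its relative Gata3 525, 565 and 450.4. The zinc-finger factor Insm1 had 3127, 2352 and 3064, lowest in DMSO 2. Mycn, amplified in many human neuroblastomas, was expressed at 377, 298 and 409, while its relative Myc had 11662, 10475 and 11861 normalized counts, 4171 ± 276 against 109.7 ± 17.3 per kb for Mycn. Hand1, Lmo3 and Tfap2b were expressed at lower levels, with at most 42.4, 69.6 and 53.2 normalized counts in a library. Tfap2a, an AP-2 factor of the neural crest, was listed at 0 in DMSO 1 and DMSO 3 and 1.01 in DMSO 2.

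The catecholamine genes were uneven, with 8 of 13 expressed. Gch1, which makes the tetrahydrobiopterin cofactor of Th, had 6912, 7071 and 7249.5 normalized counts, and the vesicular monoamine transporter Slc18a2 had 1729, 1777 and 1690.5. The enzymes of the pathway itself were low by comparison: Dbh, which makes noradrenaline from dopamine, had 205, 167 and 207, Th, which sets the rate of the pathway, 62.8, 62.5 and 55.0, and Ddc, the decarboxylase that makes dopamine, 62.8, 64.6 and 75 normalized counts. Per kb, Gch1 had 1132 ± 27.1 and Th 25.4 ± 1.88, and each gene stood apart from its neighbor in the order Gch1, Cyb561, Slc18a2, Dbh, Th, Ddc and Slc18a1. With the longest transcript in place of merged exons, the mean per kb of Ddc (33.4) was above that of Th (30.8). The monoamine oxidases Maoa and Maob, which break catecholamines down, did not reach 1 in any library. The noradrenaline transporter Slc6a2 was listed at 0 in all 3, and Pnmt, which makes adrenaline, was at 1.88 in DMSO 1 and 0 in the others.

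Granin and prohormone genes were expressed in 10 of 11 cases, with a median of 2446 normalized counts per kb, against 259 over all expressed genes. Vgf, a nerve growth factor-induced granin, was the highest with 57795, 59118 and 51123 normalized counts. Chgb came next per kb, followed by Scg3 (9426, 9669 and 8828), Chga (8499, 7715 and 8016) and Scg2 (7492, 7701 and 6870.5), members of the same granin family. Per kb of the longest transcript, Chga (mean 4289) was above Scg3 (3904). Cpe, the carboxypeptidase that trims prohormones, had 3067, 3095 and 3039. The convertases that cut prohormones differed: Pcsk2 had 324, 394 and 404, Pcsk1 had 3.65, 4.05 and 0, and Pcsk1n, which encodes a Pcsk1 inhibitor, had 2968, 3656 and 3262. Of 16 neuropeptide genes, only Npy (66.8, 94.2 and 78.8), Ppy (44.2, 71.5 and 60.7), Pomc (144, 162 and 148) and Cartpt (149, 147 and 129.9) were expressed. Their 3 libraries overlapped per kb in every neighboring pair. The galanin gene Gal and the genes Sst, Tac1, Cck, Penk, Pdyn, Calca, Calcb, Adcyap1 and Crh were listed at 0 in all 3 libraries.

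**Figure D3:**
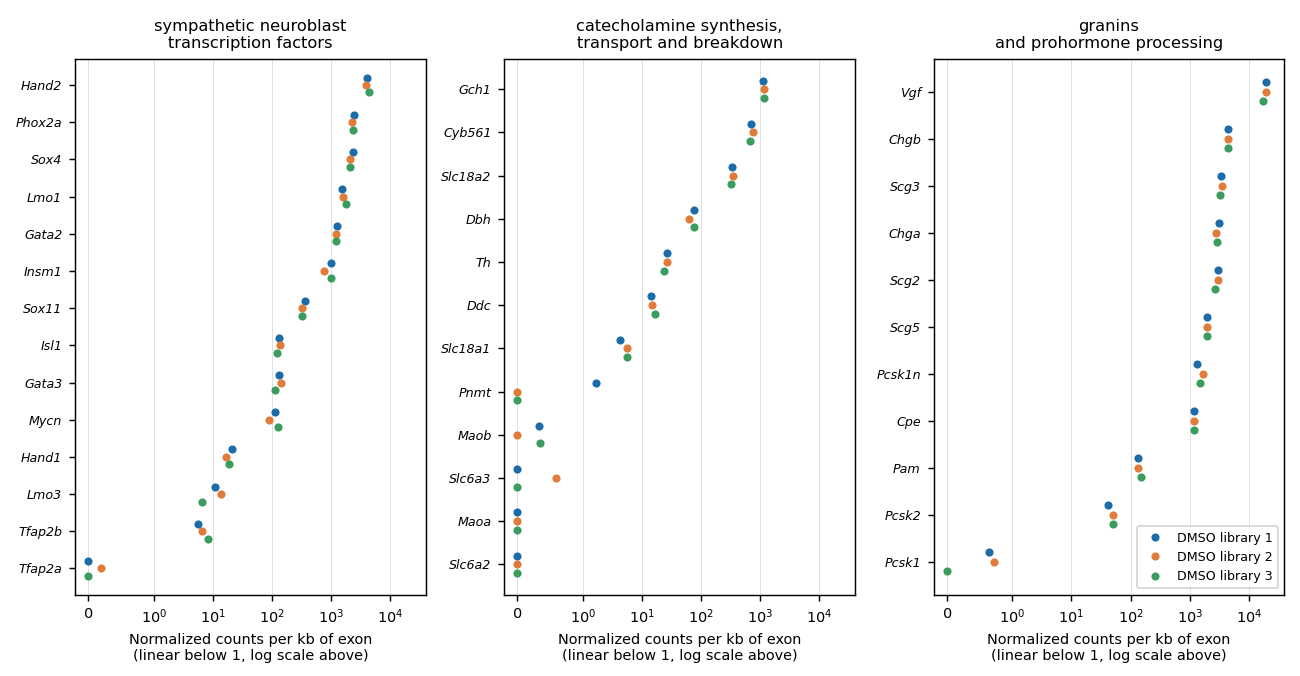
Normalized counts per kb of merged exon (x axis, linear below 1 and log above) of the genes shown from the lists of sympathetic neuroblast transcription factors, catecholamine genes and granin genes, with 1 point per DMSO library. Hand2, Gch1 and Vgf top the 3 panels at means of 4163, 1132 and 18840.2.

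General neuronal genes were nearly all expressed, 20 of 23 for the cytoskeleton and RNA-binding list and 19 of 20 for synaptic vesicle release. Prph, the intermediate filament peripherin of peripheral neurons, was the highest of the first list per kb with 68449, 76181 and 72973 normalized counts, and Stmn1, which binds tubulin dimers, had 30855, 31522 and 31008. Uchl1, a ubiquitin hydrolase abundant in neurons, had 18486, 20473 and 17970.1. Dpysl3, a collapsin response mediator, had 46844, 41639 and 44912. Of the neurofilament genes, Nefl had 1.86 in DMSO 1 and 0 in the others and Nefm had 23.6, 20.5 and 37.3, while Nefh, the heavy chain, had 7257, 6883 and 7684. Ina, α-internexin of the same filament class, had 6968, 7241 and 6586. Dcx, a microtubule-associated protein of migrating neurons, had 11.0, 7.12 and 2.96 and Rbfox3, the antigen NeuN of mature neurons, 2, 3.76 and 15.5 normalized counts. Among release genes, Cplx1, a complexin, had 3846, 3884 and 3955, Syt4 had 6196, 5952 and 6394, and Sv2b was listed at 0 in all 3 libraries.

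Transmitter identity beyond catecholamines was mixed. Tph1, a tryptophan hydroxylase of serotonin synthesis, had 531, 379 and 463 normalized counts. Tph2, the neuronal tryptophan hydroxylase, had 319.8, 348 and 378. The serotonin transporter Slc6a4 had 0.939, 2.05 and 2.93. Of 5 cholinergic genes 2 were expressed (1 by the length-scaled threshold). The acetylcholine esterase gene Ache was expressed at 343, 401 and 292, but Chat, which makes acetylcholine, had 2.82, 0 and 0.979 and the choline transporter Slc5a7 was at 0. Gad1, which makes GABA, and the glutamate transporters Slc17a6 and Slc17a8 were listed at 0 in all 3 libraries, while Slc17a7 had 69.8, 108 and 88.5.

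Genes known from sensory neurons were expressed in 7 of 13 cases. Avil, the actin-binding advillin of sensory ganglia, had 2425, 3129 and 2053 normalized counts, lowest in DMSO 3, and P2rx3, an ATP-gated channel of nociceptors, had 1744, 1966 and 1922. Runx3, a Runt factor of sensory neurons, had 1120.2, 1058 and 1115 and Pou4f1, a POU factor of sensory neurons, 711, 681 and 624. Scn10a, Scn11a, Trpv1 and Mrgprd, which mark nociceptors, did not exceed 1.02 in any library.

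Regional transcription factors of the brain were expressed in 8 of 28 cases. The highest per kb were Otx1 (862, 906 and 718 normalized counts), Pax5 (1115, 947 and 1100.2), Dlx2 (337, 398 and 271) and Pax6 (1087, 1079 and 1049). Emx1, Emx2, Otx2, Pax2 and Pax7 were listed at 0 in all 3 libraries. The Hox genes were confined to 1 cluster: 6 of 9 HoxC genes were expressed, against 0 of 11 in HoxA, 0 of 10 in HoxB and 0 of 9 in HoxD, where the highest value was 2.83 (Hoxb8 in DMSO 1). Hox genes give cells their position along the body axis, and the cluster on chromosome 15 runs from Hoxc13 (start 102921103) to Hoxc4 (end 103036852, GRCm38). Hoxc10 had 753, 888 and 738, Hoxc9 533, 694 and 641 and Hoxc6 351, 374 and 347 normalized counts. Hoxc8 was lower at 60.2, 79.2 and 21.7, as were Hoxc5 at 34.8, 68.6 and 55.7 and Hoxc4 at 67.6, 57.2 and 56.9. Per kb, Hoxc10, Hoxc9 and Hoxc6 stood apart from each other, and Hoxc4, Hoxc8 and Hoxc5 overlapped. The 6 expressed genes lie side by side from Hoxc10 to Hoxc4, and beyond them Hoxc11 and Hoxc12 were listed at 0 in all 3 libraries and Hoxc13 had 0.942, 3.04 and 0.

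**Figure D4:**
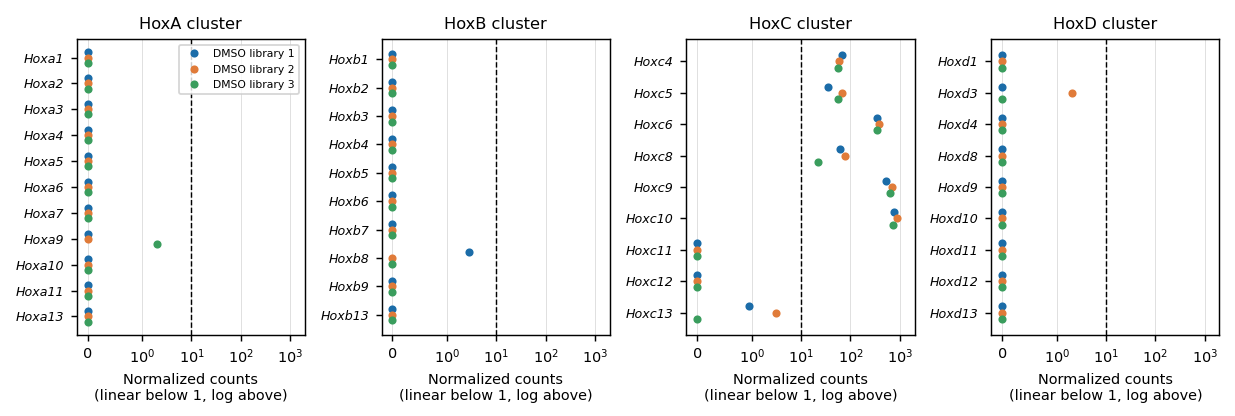
Normalized counts (x axis, linear below 1 and log above) of every Hox gene in the table by cluster and number, with 1 point per DMSO library and a dashed line at 10. Only HoxC genes pass the line, from Hoxc4 to Hoxc10.

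Markers of other cell types were checked against the neuroblastoma label. In the crest, Schwann cell and melanocyte list 8 of 16 genes were expressed. The list was led by Pmp22, a myelin protein gene, with 7436, 6861 and 7196 normalized counts, and by Sox9 with 1400.4, 1312 and 1087. The defining genes Foxd3, Fabp7, Tyr, Dct and Mlana were listed at 0 in all 3 libraries, and Sox10 had 0.950, 4.09 and 9.91. Of 12 glial genes, Cnp (989.9, 1230.4 and 1087) and Mbp (455, 464 and 394) were expressed, and Olig1, Slc1a2, Slc1a3, Mog and Mag were listed at 0. Gfap, the astrocyte filament gene, had 1.02, 25.2 and 12.5 and was low. The mesenchymal list had 9 of 15 expressed, with Vim at 29670.0, 28723 and 27047, Fn1, the fibronectin gene, at 18601, 15664 and 16874, Acta2 at 2561, 2215 and 2354 and the YAP paralog Wwtr1 at 3674, 3851 and 3459 normalized counts. Twist1, Col3a1, Fap and Yap1 were listed at 0 in all 3.

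The endothelial and blood list had 5 of 15 expressed (3 by the length-scaled threshold), with Vwf, the von Willebrand factor gene, at 169.6, 221 and 219.9 and Pecam1 at 209.8, 196 and 189, and Kdr, Tie1, Itgam and Hbb-bs were listed at 0. In the epithelial list 4 of 13 were expressed (2 by the length-scaled threshold), and the highest was Cdsn, corneodesmosin of the skin barrier, with 2155, 2480.0 and 2027 normalized counts; Epcam, Krt5, Krt7, Krt14, Krt18 and Trp63 were at 0. Muscle genes were expressed in 6 of 10 cases, the highest being Myh3, the embryonic myosin heavy chain, with 8335, 8578 and 7599.6, although Myod1 was at 0 and Myog had 1.88, 9.21 and 8.83. Liver and endoderm genes were silent or low apart from Foxa1 (367, 333 and 302), with Alb, Hnf4a and Sox17 at 0. Of the pluripotency genes, Lin28a, which blocks let-7 processing, had 3227, 3202 and 3485, and its relative Lin28b had 2346, 2375 and 2413. Pou5f1, Sox2 and Zfp42 were at 0.

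Xist, the RNA that coats the inactive X chromosome, had 36067, 28058 and 40627 normalized counts, highest in DMSO 3. The Y genes Ddx3y, Eif2s3y, Kdm5d and Uty were listed at 0, as were all 49 Y-linked names in the table. The share expressed was 39.1% of 1074 X-linked names and between 44.1% (chromosome 7) and 58.8% (chromosome 8) on the autosomes.

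Receptors for growth factors were expressed in 9 of 12 cases for neurotrophins, GDNF-family ligands and Alk, and in 12 of 23 cases among other receptor tyrosine kinases. Ngfr, the p75 neurotrophin receptor, had 13124, 11975 and 13602 normalized counts, and Ret, the signaling receptor of GDNF-family ligands, had 17229, 14648 and 18167. Alk, whose human gene is mutated in neuroblastoma, had 1679, 1619 and 1749. Of the Ret co-receptors, Gfra1 had 835, 789 and 766, Gfra2 had 88.9, 79.6 and 76.0 and Gfra3 was at 0. Ntrk2, the receptor of BDNF, was at 0 in DMSO 1 and DMSO 2 and at 2.94 in DMSO 3. Ddr2, a collagen receptor, was the highest of the other kinases with 17179, 15176 and 17100.3 normalized counts and a per-kb level of 1779 ± 122, against 546 ± 37.4 for Ddr1. Erbb4, Fgfr2, Fgfr4, Kit, Met and Kdr were at 0 in all 3. Of 13 Eph receptors 5 were expressed (2 by the length-scaled threshold), none above 168 normalized counts, the highest value of Ephb4.

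Among 29 muscarinic, adrenergic, dopamine and serotonin receptors, 5 were expressed (3 by the length-scaled threshold) and 18 silent. Chrm4, the M4 muscarinic receptor, had 849, 948 and 817 normalized counts, and the next, Adra2b, 100.4, 151 and 168. Chrm1, Chrm5, Adra1a, Adra1d and Adra2c were at 0 in all 3 libraries. Of 35 receptors for peptides, opioids, cannabinoids and lipids, 16 were expressed: Cnr1, the cannabinoid receptor of neurons, was the highest with 2830.4, 2747 and 2853, followed by Adcyap1r1, the PACAP receptor, with 2104, 2038 and 2173. The µ-opioid receptor Oprm1 was at 0, and the δ-opioid receptor Oprd1 had 185, 197 and 218. Of 20 purinergic, metabotropic glutamate and GABA-B receptors, 6 were expressed, led per kb by the adenosine receptor Adora2a with 1124, 1247 and 1172 normalized counts; Gabbr1 had 1300.0, 1276 and 1237, but its obligate partner Gabbr2 had 0, 0 and 1.96.

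Among 41 transmitter-gated cation channel genes, 15 were expressed. After P2rx3, the highest per kb were Chrna3 (3284, 2994 and 2964 normalized counts), the nicotinic subunit of autonomic ganglia, Htr3a (1217, 976 and 1172), the serotonin-gated channel, and Grik5 (1800.1, 2034 and 1876), a kainate receptor subunit. Chrnb2, a β subunit of nicotinic receptors, had 2055, 2017 and 2077, while Chrnb4, a usual partner of Chrna3 in ganglia, had 12.1, 25.6 and 16.6. Among 22 GABA-A and glycine receptor genes 2 were expressed, among them Gabrd (160.4, 182 and 155), and the α subunits Gabra2, Gabra3, Gabra4 and Gabra6 were at 0 in all 3 libraries.

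Receptors for axon guidance cues and for proteoglycans were expressed in 16 of 25 cases. Neo1, the receptor of netrin and repulsive guidance molecules, had 15214, 15091 and 15155 normalized counts, and the netrin receptor Unc5b had 5742, 5207 and 6343. Nrp2, a semaphorin co-receptor, had 9669, 7960.3 and 9763, and Ptprf, a receptor phosphatase, 6228, 6387 and 6057. The chondroitin sulfate receptor Ptprs had 3387, 3109 and 2940.4 and the Nogo receptor Rtn4r was at 0 in all 3. The netrin receptor Dcc had 1.86, 1.03 and 0.

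Sodium channel genes were expressed in 8 of 14 cases. Scn3b, an auxiliary subunit, had 1285, 1287 and 1318 normalized counts, and the pore subunit Scn8a had 1684, 1670.2 and 1720.1. Scn9a, a pore subunit of peripheral neurons, had 1073, 1088 and 1095 and Scn2a had 499, 537 and 455. The calcium channel list had 9 of 18 expressed, led per kb by the β subunit Cacnb3 (1993, 2273 and 2196) and Cacna1b (2709, 3089.6 and 2965), the N-type pore subunit. The T-type subunit Cacna1g had 992, 1214 and 966, and Cacna1i, of the same type, had 909, 849.5 and 816. Cacna1d, Cacna1f, Cacna2d1 and Cacna2d3 were at 0. Of 40 voltage-gated potassium channel genes 12 were expressed, with Kcnh2, which encodes the ERG channel, at 3926, 3759 and 4040.1; 19 were silent, among them Kcna1, Kcna3, Kcna5, Kcna6 and Kcna10. Of 36 other potassium channel genes 14 were expressed (9 by the length-scaled threshold), with the leak channel Kcnk3 at 1578, 1754 and 1399.

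In the list of HCN, CNG, TRP, Piezo and acid-sensing channels 14 of 38 were expressed. Piezo1, a mechanically gated channel, had 7018, 6671 and 6440.1 normalized counts, whereas Piezo2 did not reach 1 in any library. Hcn2, a channel of the hyperpolarization-activated current, had 1706, 1876 and 1737, Asic1, an acid-sensing channel, 2755, 2870.1 and 2739.9, and Trpm7, a cation channel fused to a kinase, 4574, 4161 and 4361. Chloride channel and transporter genes were expressed in 15 of 26 cases, and Slc12a2, which carries chloride into neurons, had 1598, 1559 and 1719.8 normalized counts. Slc12a5, which carries it out, had 382, 389.6 and 446. Cftr, the epithelial chloride channel, had 768, 823 and 755. Ano1, Ano3, Ano4 and Ano5 were at 0 in all 3 libraries.

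Collagen chains were expressed in 23 of 44 cases (14 by the length-scaled threshold), with a median of 13.5 normalized counts per kb, against 259 over all expressed genes. The basement membrane chain Col4a2 was the highest with 16542, 13944 and 16212 normalized counts. Its partner Col4a1 had 8928, 7725 and 8805, and both were lowest in DMSO 2. Col6a5 had 6128, 6507 and 6171, while Col6a1 had 107, 117 and 107. Col6a2, with Col6a1 a chain of every classical collagen VI, was listed at 0 in all 3 libraries and Col6a3 had 0, 1.02 and 0. Of the fibrillar chains, Col5a3 had 332, 299 and 287, Col11a2 had 231, 188 and 258 and Col2a1 had 78.0, 98.1 and 85.5. The chains of collagens I and III were lower, with Col1a1 at 37.6, 53.0 and 25.8, Col1a2 at 0, 2.04 and 0 and Col3a1 at 0 in all 3. Of 15 basement membrane genes 9 were expressed: Lamc1, the common laminin γ chain, had 12478, 11293 and 11471, Agrn, agrin, 7291, 7248 and 6921, and Hspg2, perlecan, 3494, 3381 and 3162. The β chain differed by gene, with Lamb2 at 1004, 802 and 844 and Lamb1 at 0, 8.18 and 0. Of the α chains Lama4 had 3088, 2883 and 2784 and Lama5 1518, 1638 and 1501, while Lama1, Lama2 and Lama3 were low.

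Matrix glycoproteins were expressed in 17 of 29 cases (10 by the length-scaled threshold). Fbln1, a fibulin of elastic and basement membrane matrix, had 12898, 12638 and 11554 normalized counts, and Fbln2 had 13524, 12484 and 12211. Sparc, a collagen-binding protein, had 7766, 6371 and 6906. Tnc had 7.50, 10.2 and 7.83 and Tnr 1.87, 1.02 and 0. Integrin subunits were expressed in 17 of 26 cases, with the shared β subunit Itgb1 at 29797, 27861 and 29385 and the laminin-binding α subunit Itga6 at 11107, 9686 and 10742. Itga4, Itga9, Itgad, Itgam, Itgax and Itgb8 were at 0. Of 26 metalloproteinase and inhibitor genes 14 were expressed, the highest per kb being Mmp11 (1585, 1538 and 1576), Adamts4 (1795, 1936 and 1535), which cleaves aggrecan-type proteoglycans, and the inhibitor Timp2 (1205, 1264 and 1013).

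Xylosides enter glycosaminoglycan synthesis at the linkage region, the short run of xylose, galactose and glucuronic acid that joins each chain to a core protein. Of 13 linkage genes 10 were expressed. The xylosyltransferase Xylt1 was listed at 0 in all 3 DMSO libraries and Xylt2 had 517, 419 and 508 normalized counts. B4galt7, the galactosyltransferase that can use a xyloside as acceptor, had 542, 582 and 558, B3galt6 204, 241 and 244 and B3gat3, which adds the glucuronic acid, 1515, 1534 and 1575. Fam20b, the xylose kinase, was the highest with 5204, 5474 and 5288; per kb it did not stand apart from Slc35b2, which carries the sulfate donor into the Golgi. B3gat1 was listed at 0 and B3gat2 had 0, 0 and 6.90.

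Chondroitin and dermatan sulfate synthesis genes were expressed in 9 of 16 cases. Of the polymerizing genes, Chpf had 2890.5, 2948 and 2994 normalized counts and Chsy1 had 1950.1, 1767 and 1812, and Chsy3 was at 0. Csgalnact2, which starts the chain, had 478, 418 and 509.9, against 13.9, 8.13 and 0 for Csgalnact1. Of the 4-O-sulfotransferases, Chst11 had 3932, 3731 and 4049.8, Chst12 had 842, 974 and 832 and Chst14, which acts on dermatan sulfate, had 333, 372 and 346. The 6-O-sulfotransferase genes Chst3 and Chst7 were low, with Chst3 at 17.0, 7.17 and 9.80 and Chst7 at 2.86, 2.04 and 5.95. Per kb, Chst11 had 706 ± 29.2 and Chst12 374 ± 33.5 (SD, n = 3).

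Heparan sulfate genes were expressed in 13 of 23 cases. Ext1, which polymerizes the chain together with Ext2, had 1581, 1483 and 1386 normalized counts, and Ext2 had 2329.9, 2513 and 2202. Hs6st1, a 6-O-sulfotransferase, was the highest with 8903, 8440.5 and 8519, and Hs6st2 and Hs6st3 were at 0. Ndst1, which starts the N-sulfation, had 2337, 2085 and 2367, Ndst2 411, 491 and 371, and Ndst3 was at 0. Glce, the epimerase, had 4597, 4246 and 4953 and Hs2st1, the 2-O-sulfotransferase, 1712, 1749.6 and 1789. Of the sulfatases that edit finished chains, Sulf1 had 23.4, 64.5 and 56.5 and Sulf2 14.1, 10.2 and 7.84. None of the hyaluronan synthases was expressed, with Has1 at 0 in all 3 libraries, Has2 at 0.925, 2.04 and 0.981 and Has3 at 6.56, 7.18 and 21.4. The hyaluronan receptor gene Cd44 was at 0. Hmmr, another hyaluronan receptor gene, was expressed. Its mean was 1506 normalized counts per kb of the longest transcript (3892 bases, against 5431 of merged exons). That scale differs from the values given above.

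Among core proteins, 5 of 11 syndecans and glypicans were expressed. Gpc1 had 3856, 3810.5 and 3721 and Sdc1 2575, 2514 and 2847 normalized counts, with Sdc3 at 1483, 1441 and 1310.2, Gpc6 at 829, 822 and 822 and Sdc4 at 72.3, 87.6 and 77.6. Gpc3 did not reach 1 and Gpc4 was at 0 in all 3. Chondroitin sulfate proteoglycans and link proteins were expressed in 12 of 22 cases: Aplp2, which can carry a chain in some isoforms, had 13822, 12883 and 12848, and its relative App had 18865, 17391 and 17216. The testican gene Spock2 had 6497, 5897 and 6371. The brain proteoglycan genes Bcan, of brevican, and Ncan, of neurocan, were lower, with 1003, 1078 and 957 for Bcan and 714, 774 and 646 for Ncan. Acan had 3.75, 6.14 and 2.94 and Srgn was at 0.

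Proliferation genes were expressed in 22 of 24 cases. Cdk4 had 17674, 16622 and 18612, Top2a 42258, 39659.5 and 40560.3 and Mki67 31506, 27334 and 27696 normalized counts. Ccnd1, the cyclin of early G1, had 8503, 6821 and 9203, lowest in DMSO 2, and the cyclin-dependent kinase inhibitor gene Cdkn2a had 1381, 1426 and 1639. Immediate early genes were expressed in 19 of 20 cases, led per kb by Myc, Ier2 (4885, 4661 and 4722) and Egr1 (12131, 12568 and 8926, lowest in DMSO 3). Inflammation genes were expressed in 9 of 21 cases, with the cytokine gene Il6 at 1957, 1538 and 1931 and Lcn2, lipocalin 2, at 603, 1075 and 510.2, while Il1b was at 0 and Tnf had 0.944, 2.06 and 5.69.

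The 3 libraries agreed closely. Over the 12581 expressed genes, the median absolute difference in log2(value + 1) was 0.10 between DMSO 1 and DMSO 2, 0.09 between DMSO 1 and DMSO 3 and 0.12 between DMSO 2 and DMSO 3, and Pearson's r across genes was 0.995, 0.995 and 0.993. Between 480 and 655 genes (3.82 to 5.21%) differed at least 1.5-fold in a pair of libraries. The coefficient of variation (SD over mean of the 3 libraries) had a median of 6.14%, and fell with level: 25.5% at means of 10 to 30, 12.5% at 100 to 300, 7.52% at 300 to 1000 and 4.07% above 10000. Counting error alone would give 18.1, 6.18, 3.38 and 0.587% in these classes. Among genes with a mean of at least 100, the 2737 with the shortest exons had a median log2 deviation from their own mean of -0.03 in DMSO 1, and the 2737 with the longest exons one of 0.03.

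Of the 12 named genes with the largest variation, 11 could be placed in the annotation, and 7 of these share 50% or more of their sequence with other genes. Eif3j1, a translation initiation subunit, was listed at 0, 0 and 2048, and its near copy Eif3j2 at 3096, 2881 and 1212; the sums of both were 3096, 2881 and 3260. Gdf1, a TGF-β family ligand, had 64.3, 701 and 0. Cers1, a ceramide synthase whose locus contains it on chromosome 8 (70315775 to 70331592, GRCm38), had 613, 0 and 632; their sums were 677, 701 and 632. Entpd4, a nucleotide phosphatase of the Golgi, had 623, 177 and 840.0, and with its copy Entpd4b the sums were 1785, 1830 and 1808. The sums varied by 6.16, 5.26 and 1.24% over the 3 libraries. Zfp965, Amd1, Rsc1a1, Xlr4c and Eyelinc18 were also among the 12 with the largest variation, and Pnma3 and Cttnbp2 closed the list. Of the 47 placed genes among the 50 largest coefficients of variation at a mean of at least 100, 15 share 50% or more of their sequence with other genes (31.9%), against 2.64% of all genes with such a mean.

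Among the expressed genes that share less than 50% of their sequence, Lcn2 was in the 3 most variable at a mean of at least 100, with 1075 in DMSO 2 against 603 and 510.2. Of 10661 genes with a mean of at least 100 that share less than 50% of their sequence, 42 had a coefficient of variation of 30% or more. A single library was at least 1.5-fold above both others for 4 (DMSO 1), 21 (DMSO 2) and 12 (DMSO 3) of the 10661 genes, and at least 1.5-fold below both for 5, 10 and 16. The steadiest genes with a mean of at least 1000 included Sf3b3, a splicing factor subunit (21464, 21449.7 and 21431), Xab2 (6952, 6942 and 6942), Tagln2, the β2-microglobulin gene B2m (11682, 11712 and 11688), Plagl2, Ap1b1, Cox8a, Hnrnpll, Cdt1 and Vrk1. With 3 libraries, such small spreads arise among many genes and are given as values only.

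**Figure D5:**
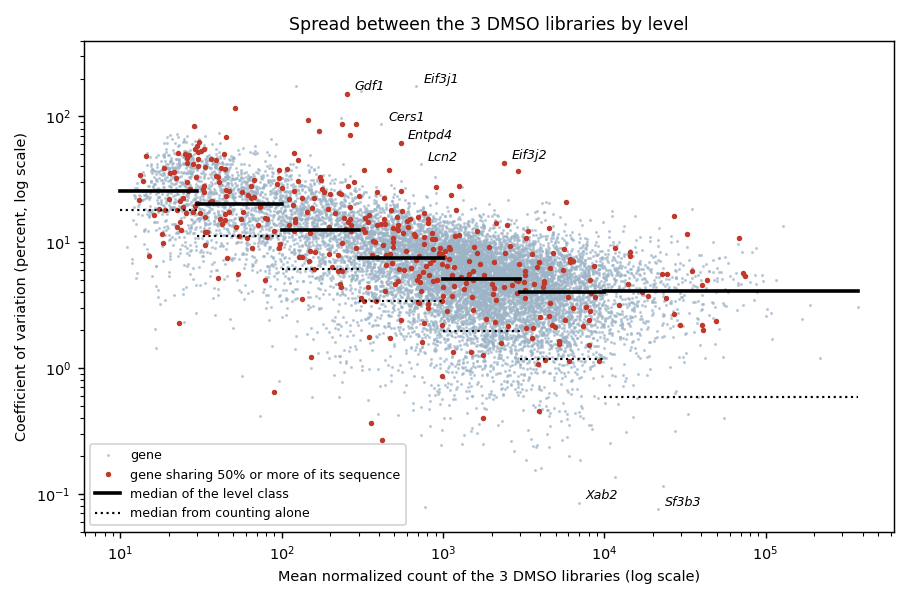
Coefficient of variation over the 3 DMSO libraries (y axis, percent, log scale) against mean normalized count (x axis, log scale), with 1 point per gene, genes that share 50% or more of their sequence in red, and the median observed (solid) and from counting alone (dotted) in each level class. Medians lie at 25.5% from 10 to 30 and 4.07% above 10000, and Eif3j1, Gdf1 and Cers1 stand at the top.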

How the data were processed

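RNA of the DMSO, LCX and HCX samples of Neuro2a cells was sequenced as TruSeq stranded libraries of polyadenylated RNA. The deposited table holds signal values per gene and library, normalized counts that the authors made in Partek Flow from reads aligned with TopHat2 and Bowtie to mm10 (GRCm38) and filtered and normalized there. Versions and the gene annotation are not given in the sources used here, and 0 columns were left unmapped. Per-gene reads could not be recovered exactly, so no count test was run, and no test compared groups. The DMSO libraries alone were analysed, with Python 3.11.15, numpy 2.4.6, pandas 2.3.3 and scipy 1.17.1. Values were divided by merged exon length from GENCODE vM21, which placed symbols by name or RefSeq synonym. Sequence sharing is the percent of a gene's 31-base stretches that also occur in other genes' transcripts. The spread calculation was tested on simulated data. Mitochondrially encoded genes carry no name in the table and were not analysed here, and 26 names turned into dates are counted but not named. Some genes of the lists are counted in them but not reported here by name.

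The libraries and gene lists were chosen with earlier results of these data known. Named genes are the 4 markers, the 15 highest by value and per kb, the 12 most and 10 least variable, and from each list up to 6 expressed members of the highest level per kb and up to 6 silent, low or defining members, or any member of a list of at most 16. Psma8, Psmb11, Rpl10l, Rpl3l, Rps4l, Nefh, Nefm, Ina, Oprd1, Gabbr2, Chrnb4, Ptprs, Dcc, Piezo2, Slc12a2, Slc12a5, Cftr, Vwf, Col2a1, Col5a3, Col11a2, Col6a1, Col6a2, Col6a3, Ext1, Hs2st1, Hs6st2, Hs6st3, Ndst2, Sulf1, Sulf2, Cd44, Ccnd1, Cdkn2a, Il1b, Tnf and Entpd4b, and the 4 promoters printed (Hand2, Prph, Emx2 and Alb), were chosen after their values were seen. Alternatives were other thresholds, scalings, length measures and sequence filters, and leaving out each library.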

Additional observations from a re-analysis of the deposited data

How the results depend on the processing

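The number of expressed genes stayed within 1.5 times 12581 under every setting tried, from 11650 (the length-scaled threshold, at least 1 of 1000000 length-scaled counts in each library) to 13044 (at least 5 in all 3 libraries), and from 12681 to 12733 when a library was left out. Of the 980 list genes, 403 to 503 were expressed over these settings and 479 to 486 without a library. The share held by the 100 most abundant genes was 28.1% when genes were ranked and summed per kb, and 17.3 to 17.5% without a library. The median level of expressed genes was 356 normalized counts per kb with the longest transcript in place of merged exons, against 259, and 258.2 to 259.8 without a library. Of the 15 genes highest per kb, 11 remained among the 15 highest by longest transcript. Some orders within lists also changed with this measure, among them those of Tubb3 and Map1b, Th and Ddc, and Scg3 and Chga. The median coefficient of variation was 8.03% over all genes with a mean above 0, and 4.66 to 5.94% without a library, where it rests on 2 values a gene. CpG-rich promoters were held by 55.4% of expressed and 7.63% of silent genes at a ratio of 0.75, by 74.99% of expressed genes at a threshold of 20, and by 73.3 to 73.5% of expressed and 12.8 to 13.9% of silent genes without a library. By list, at least 20 in all 3 libraries moved the count of expressed members by over 1.5 times in 2 of 52 lists, the cholinergic genes (2 to 1) and the muscarinic, adrenergic, dopamine and serotonin receptors (5 to 3). The length-scaled threshold did so in 8: both of these, with the same counts, and the endothelial and blood (5 to 3), epithelial (4 to 2), Eph receptor (5 to 2), other potassium channel (14 to 9), collagen (23 to 14) and matrix glycoprotein (17 to 10) lists. No paired analysis was possible because no groups were compared by a test.

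Values listed at 0 rest on the deposited assignment of reads, and depth limits each to about 3 reads a library. Genes near the threshold of 10 can change class with 1 library. Levels per kb depend on which transcripts a gene uses, which was not measured.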
